A study of Mus musculus with 8 samples.

Results

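Kinesin and centromere protein genes were followed in wild-type mouse embryonic stem cells and in cells labelled as a knockout of lncSmad7, a long noncoding RNA. Members were the symbols of the deposited count table made of Kif, a number and an optional letter from a to c, or of Cenp and a single letter, together with Mki67 and Top2a, the common markers of dividing cells. They needed at least 10 reads in at least 2 of the libraries used. Of 55292 features, 60 symbols matched, and 57 had enough reads: 35 kinesins, 20 Cenp genes, Mki67 and Top2a. All 57 also passed the filter on low counts of the test. The symbols left out were Kif2b, Kif12 and Kif28. Kif28 was just outside, with 0 and 3 reads in wild type, 2 and 4 in the knockout libraries, and 9 and 5 in the transfected libraries. Kif6 was just inside, with 5 and 9, 11 and 14, and 15 and 17 reads. The symbol pattern misses relatives with other names, such as Cenpc1, Kifc1 and Itgb3bp, which are given with the related genes further on.

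The cells were of E14, an embryonic stem cell line of strain 129/Ola, grown without feeder cells on gelatin in medium with serum and LIF, a cytokine that keeps such cells undifferentiated. The groups were wild-type E14 without treatment, lncSmad7-/- E14 without treatment, and lncSmad7-/- E14 labelled as transfected with Smad7, whose descriptions give 24 h. Each group had 2 libraries, which the study's design calls biological replicates. A further group, the knockout transfected with lncSmad7, was not analysed here. Neither the number of knockout clones nor the vector, the transfection efficiency or a mock transfection is given in the labels. Transfection and the time it took therefore cannot be told apart from Smad7 itself.

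Kinesins are motor proteins that move along microtubules. One set of them works in mitosis, where they push spindle poles apart, move and align chromosomes, shorten microtubule ends or organise the midzone at which the daughter cells separate. Another set carries organelles and vesicles, and others work in cilia. Centromere proteins mark the site on each chromosome where spindle microtubules attach: Cenpa is the histone H3 variant of that chromatin, a constitutive network of subunits sits on it throughout the cell cycle, and Cenpe and Cenpf join the outer kinetochore when cells prepare to divide. Embryonic stem cells divide quickly and transcribe many of these genes, a large part of them late in the cell cycle, under the DREAM and MuvB-Mybl2-Foxm1 complexes.

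Total counts lay between 13392941 and 20209760 per library, lowest in the transfected libraries. The members together took 0.652% and 0.654% of the counts in wild type, 0.509% in each knockout library, and 0.631% and 0.62% in the transfected libraries. The lncSmad7 feature was lower but not lost in the knockout, at 13.2 CPM (counts scaled to a common library size with TMM factors) in wild type, 6.33 in the knockout libraries and 10.99 in the transfected libraries. Its position relative to the deletion is not given. Smad7 stood at 97.7, 72.5 and 96.6 CPM, so with TMM factors the libraries labelled Smad7-transfected stood at the wild-type level of Smad7. Raw Smad7 counts there were 1454 and 1837 of totals of 13392941 and 15972163. In wild type they were 1655 and 1747 of 19260386 and 20209760. Scaled by total counts alone, Smad7 thus stood above wild type in the transfected libraries. Of 8 embryonic stem cell markers none was at 0 in any library, and their sum ranged from 4370 to 6676 CPM. Fibroblast and feeder markers summed to between 7.55 and 17.3 CPM, with at least 1 of Col3a1, Dcn, Lum and Postn at 0 in 5 of the libraries.

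The differences between these groups are broad. Every test below is edgeR's quasi-likelihood test with Benjamini-Hochberg adjustment over 17342 genes and a threshold of 0.05. Of all genes tested, 67.7% passed between knockout and wild type, 74.6% between the transfected libraries and the knockout, and 81.9% between the transfected libraries and wild type. The 3 comparisons share libraries, so a group that is low in one is by construction the reference of another, and their values are set side by side without a measure of likeness. In bulk RNA, fewer cells in a state such as mitosis and less RNA per cell cannot be told apart.

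Promoters of 6 members are shown first, marked for sequences through which late cell-cycle genes are known to be controlled. Not all 6 carry them. The CHR element (TTTGAA) is bound by the MuvB core, and the CCAAT box (CCAAT, or ATTGG on the other strand) by NF-Y. Each run holds 250 bases before and 50 after the start of the gene, on the gene's strand, from RefSeq for GRCm38.p6, with both motifs in capitals on either strand. Cenpf, Mki67, Kif20b and Kif18a were lower in the knockout by at least 4-fold, and Cenpa and Kif23 were not lower.
Cenpf (chr1:189688037-189688336, minus strand): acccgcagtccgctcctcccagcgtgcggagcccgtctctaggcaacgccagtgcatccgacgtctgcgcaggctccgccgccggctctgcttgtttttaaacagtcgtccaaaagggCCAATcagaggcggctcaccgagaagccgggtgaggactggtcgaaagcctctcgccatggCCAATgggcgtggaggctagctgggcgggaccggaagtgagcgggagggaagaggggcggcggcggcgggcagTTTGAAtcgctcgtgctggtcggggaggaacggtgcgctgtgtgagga
Mki67 (chr7:135716330-135716629, minus strand): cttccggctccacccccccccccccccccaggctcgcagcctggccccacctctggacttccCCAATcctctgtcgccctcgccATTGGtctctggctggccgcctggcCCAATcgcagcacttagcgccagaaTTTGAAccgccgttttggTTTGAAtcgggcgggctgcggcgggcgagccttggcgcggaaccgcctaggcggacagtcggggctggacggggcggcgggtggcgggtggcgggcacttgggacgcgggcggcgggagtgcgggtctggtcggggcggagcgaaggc
Kif20b (chr19:34922108-34922407, plus strand): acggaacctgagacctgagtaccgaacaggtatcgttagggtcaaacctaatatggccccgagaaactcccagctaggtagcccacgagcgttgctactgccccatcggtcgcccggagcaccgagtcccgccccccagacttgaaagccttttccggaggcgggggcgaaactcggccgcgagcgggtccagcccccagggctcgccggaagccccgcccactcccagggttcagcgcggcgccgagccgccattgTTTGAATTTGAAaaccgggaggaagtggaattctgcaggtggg
Kif18a (chr2:109280488-109280787, plus strand): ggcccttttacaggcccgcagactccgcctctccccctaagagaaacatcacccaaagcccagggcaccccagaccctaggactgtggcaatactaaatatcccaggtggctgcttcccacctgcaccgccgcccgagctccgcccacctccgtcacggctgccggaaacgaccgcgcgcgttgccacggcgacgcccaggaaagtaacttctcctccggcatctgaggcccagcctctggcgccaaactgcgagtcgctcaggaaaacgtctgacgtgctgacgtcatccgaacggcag
Cenpa (chr5:30666636-30666935, plus strand): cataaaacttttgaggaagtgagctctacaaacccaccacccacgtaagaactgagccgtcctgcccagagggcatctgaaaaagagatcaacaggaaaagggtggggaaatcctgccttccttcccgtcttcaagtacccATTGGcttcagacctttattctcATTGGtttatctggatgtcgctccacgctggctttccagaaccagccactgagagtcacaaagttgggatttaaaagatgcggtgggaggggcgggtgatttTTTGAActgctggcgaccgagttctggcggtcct
Kif23 (chr9:61946750-61947049, minus strand): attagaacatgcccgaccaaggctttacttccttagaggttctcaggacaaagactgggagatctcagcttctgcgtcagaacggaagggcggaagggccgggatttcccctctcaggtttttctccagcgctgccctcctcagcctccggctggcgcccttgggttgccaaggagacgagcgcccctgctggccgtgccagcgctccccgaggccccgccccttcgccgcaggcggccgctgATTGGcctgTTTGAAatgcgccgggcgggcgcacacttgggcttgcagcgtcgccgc
Cenpf, Mki67, Cenpa and Kif23 held both motifs, Kif20b held 2 copies of TTTGAA in a row and no CCAAT, and Kif18a held neither.

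Promoter windows were found for 51 of the 57 members. The members without one were Kif5a, Kif5b, Kif13b, Kif19a, Kif20a and Kif21b. TTTGAA was in 48.5% of the 33 windows of 30 mitotic and centromere members, in 13% of the 23 windows of 19 transport and other kinesins, and in 12.3% of the 15064 windows of the genes tested. CCAAT was in 72.7%, 34.8% and 37.6% of them. Among the mitotic and centromere members, 8 of the 16 with TTTGAA were lower in the knockout and 2 were higher, with a median log2 fold of -0.11. Of the 14 without it, 9 were lower and 4 higher, with a median of -0.36. Of all genes tested, 33.3% were lower and 34.5% higher in the knockout, with a median of 0.024. The letters were thus common in mitotic and centromere promoters, and members with and without them were found among both the lower and the higher genes.

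Between knockout and wild type, 20 members were higher, 22 were lower and 15 did not pass the test. That is 35.1% higher and 38.6% lower, beside 34.5% and 33.3% of all genes tested. The higher members include Kif17, Kif19a and Kif26b, whose direction against wild type was fixed by the minimum of 10 reads. Of the 51 members with a mean of 5 CPM or more, 31.4% were higher and 43.1% lower. The share of all genes at that level was not taken, so these values have no like beside them. With a filter of 1 CPM in 4 libraries, 18 of 52 members were higher and 22 lower. Of all genes 77.5% then passed, with 50.7% of calls higher. The median log2 fold was 0.003 over the members and 0.024 over all genes. The libraries of the 2 groups did not overlap for 49 of the 57 members, and for 82.5% of all genes. By at least 2-fold, 4 members were higher and 7 lower, beside 14.2% and 8.74% of all genes. Among the 51 members with a mean of 5 CPM or more, 1 was higher and 7 lower by that much, so most of the 2-fold rises were of members with few reads. Scaled by library size alone, which moves the median of all genes to 0.17, 28 members were higher and 18 lower. Outer kinetochore genes were lower in both cases, constitutive centromere genes were lower in 9 of 14 and higher in 3, mitotic kinesins were lower in 5 of 11 and higher in 2, and transport kinesins were higher in 10 of 15 and lower in 2.

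**Figure D1:**
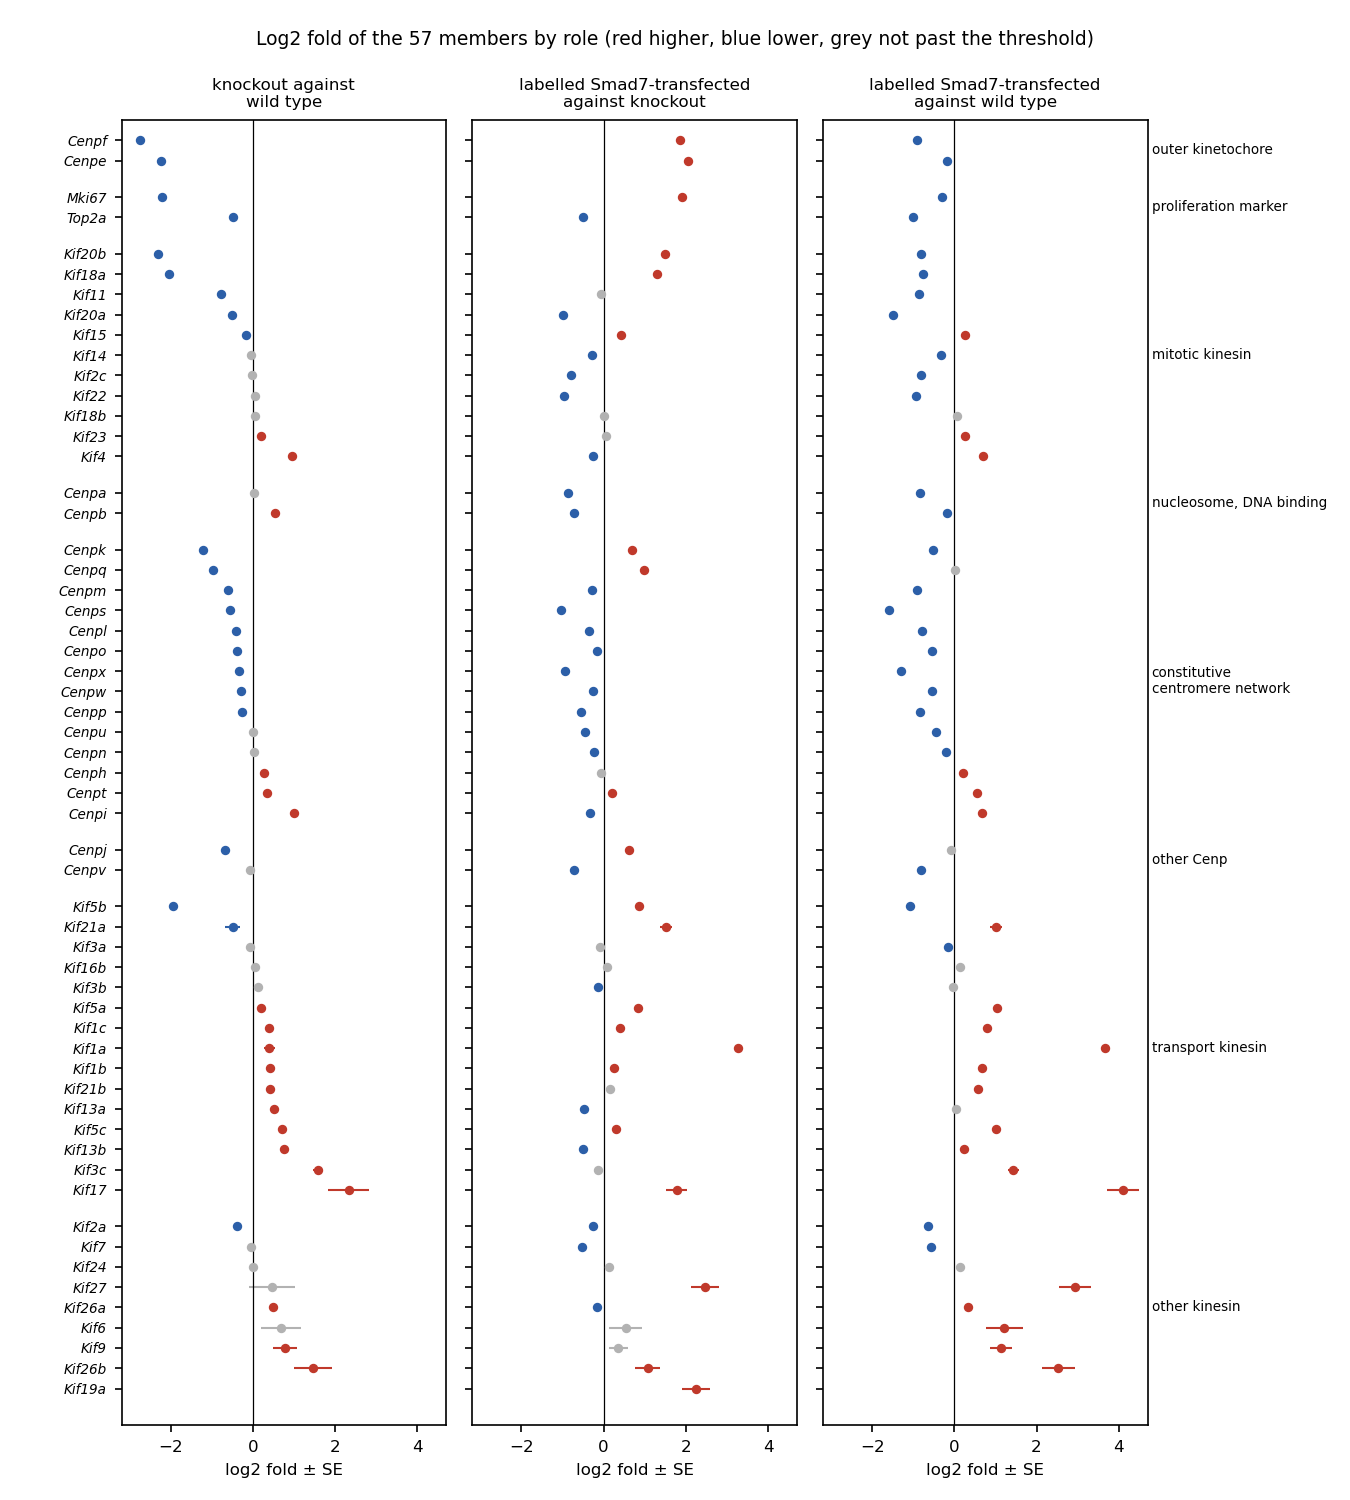
Log2 fold (x axis) with its standard error for each of the 57 members (rows, grouped by role) in the 3 comparisons. Kif19a is not drawn against wild type, where it had no reads; the 7 members lower by at least 2-fold in the knockout, led by Cenpf at -2.76, lie above zero in the middle panel.

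The outer kinetochore pair held the member with the deepest fall. Cenpf, a large coiled-coil protein of the outer kinetochore that binds microtubules, stood at 413 and 397 CPM in the wild-type libraries, 61.6 and 57.8 in the knockout libraries, and 223 and 211 in the transfected libraries. The knockout was lowest and no groups overlapped. The log2 fold was -2.76 (SE 0.0427) in the knockout against wild type, 1.86 (SE 0.0443) in the transfected libraries against the knockout, and -0.90 (SE 0.0372) against wild type. Cenpe, the kinesin that carries chromosomes toward the spindle equator, stood at 249 and 246 CPM in wild type, 53.2 and 52.6 in the knockout libraries, and 226 and 212 in the transfected libraries. Its log2 fold was -2.23 (SE 0.0438), 2.05 (SE 0.0444) and -0.18 (SE 0.0374) in the same order. The transfected libraries thus lay nearer to wild type for Cenpe than for Cenpf. The last value of Cenpe changed direction with library size scaling, to 0.21, and lost its call with a filter of 1 CPM in 4 libraries (-0.07, adjusted p 0.07).

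Mki67 and Top2a, the proliferation markers, parted. Mki67, which coats mitotic chromosomes, stood at 649.6 and 638 CPM in wild type, 142 and 137 in the knockout libraries, and 525 and 518.5 in the transfected libraries. It fell by 2.21 on the log2 scale in the knockout (SE 0.0384), was 1.91 higher in the transfected libraries than in the knockout (SE 0.0385), and stood 0.30 below wild type there (SE 0.035). Top2a, the topoisomerase that untangles replicated chromosomes, stood at 1836 and 1835 CPM, 1326 and 1288, and 935 and 909. It was the most abundant member per length, at 204 RPKM (CPM per kilobase of exon) in wild type, ahead of Kif20a at 67.2 and Mki67 at 64.0. Its log2 fold was -0.49 (SE 0.0338) in the knockout against wild type, -0.50 (SE 0.0342) in the transfected libraries against the knockout, and -0.99 (SE 0.0343) against wild type. The knockout was thus the lowest group for Mki67 and the middle group for Top2a. With library size scaling Mki67 was 0.09 above wild type in the transfected libraries.

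**Figure D2:**
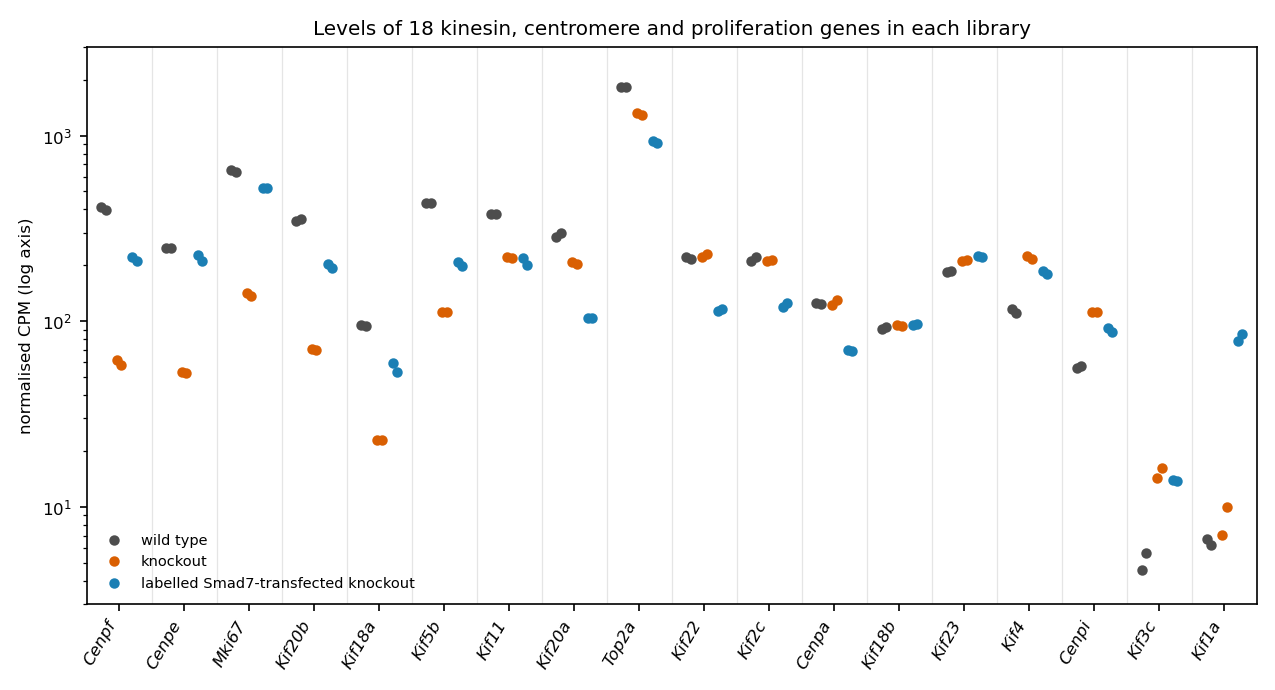
Normalised CPM (log axis) of 18 members in each library, coloured by group, 2 points a group. Cenpf, Cenpe, Mki67, Kif20b, Kif18a and Kif5b are lowest in the knockout, while Kif20a, Top2a, Kif22, Kif2c and Cenpa are lowest in the labelled Smad7-transfected knockout.

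Mitotic kinesins showed several orders of the 3 groups. Kif20b, which acts late in cytokinesis, stood at 347 and 354 CPM in wild type, 70.8 and 70.2 in the knockout libraries, and 204 and 194 in the transfected libraries. Kif18a, which damps chromosome movement at kinetochore microtubule ends, stood at 95.4 and 94.3 CPM, 22.9 and 22.9, and 59.8 and 53.2. Both were lowest in the knockout and rose without reaching wild type. The log2 fold of Kif20b was -2.31 (SE 0.0414) in the knockout against wild type and 1.496 (SE 0.043) in the transfected libraries against the knockout. For Kif18a these were -2.05 (SE 0.0595) and 1.30 (SE 0.0649). Against wild type the transfected libraries stood at -0.82 and -0.75.

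Kif11, the motor that pushes spindle poles apart, was lower in the knockout and no higher after transfection. It stood at 377 and 379 CPM in wild type, 222 and 220 in the knockout libraries, and 219 and 201 in the transfected libraries. The log2 fold was -0.77 (SE 0.0372) against wild type in the knockout and -0.08 (SE 0.0387) between the transfected libraries and the knockout, which did not pass (adjusted p 0.065). That second difference passed without knockout replicate 2 (-0.10, adjusted p 0.046), without transfected replicate 1 (-0.15, adjusted p 0.0024), and with no filter on low counts (-0.12), and library size scaling turned it to 0.17. Kif15, which can stand in for Kif11 on the spindle, had 223 and 213, 195 and 195, and 264 and 257 CPM. It was highest in the transfected libraries, by 0.42 (SE 0.0377) over the knockout on the log2 scale. Its small difference between knockout and wild type, -0.16, became 0.04 with corrections for GC content and length.

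Kif20a, Kif22 and Kif2c were lowest in the transfected libraries. Kif20a, which brings the chromosomal passenger complex to the midzone, stood at 282 and 300.3 CPM in wild type, 207 and 203 in the knockout libraries, and 103 and 104 in the transfected libraries. Its log2 fold was -0.51 (SE 0.0372) and then -0.98 (SE 0.0412), the same direction in both steps. Of its exons, 29.3% overlap Cdc23, and the strand setting of the counting is not given. Kif22, a motor on chromosome arms, stood at 221 and 218, 222 and 229, and 113 and 117 CPM. Kif2c, which shortens microtubules at centromeres, stood at 210.5 and 221, 209.9 and 212, and 119 and 125 CPM. Neither passed between knockout and wild type (adjusted p 0.34 and 0.47), where library size scaling gives Kif2c a difference of 0.11 and the GC correction gives Kif22 one of -0.11. Both were lower in the transfected libraries than in the knockout, by -0.97 (SE 0.04) and -0.79 (SE 0.0401).

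Among the mitotic kinesins, Kif23, Kif18b and Kif14 had the smallest differences. Kif23, the motor of the centralspindlin complex, rose from 185 and 187 CPM in wild type to 212 and 214 in the knockout, with 224 and 221 in the transfected libraries. Its log2 fold was 0.20 (SE 0.038) in the knockout and 0.06 (SE 0.0375) between the transfected libraries and the knockout, the latter not passing (0.16 and passing with a filter of 1 CPM in 4 libraries). Kif18b, which controls astral microtubule length, had between 90.5 and 95.95 CPM in the 6 libraries and passed in none of the 3 comparisons. It passed at -0.20 in the knockout with corrections for GC content and length, but at 0.19 there with library size scaling, so its direction depends on the setting. In the other comparisons it passed at 0.12 and 0.17 with a filter of 1 CPM in 4 libraries, and at 0.26 and 0.45 with library size scaling. Kif14, which acts in cytokinesis, did not pass in the knockout (-0.05) and was at -0.29 in the transfected libraries against it. The first difference passed with RLE scaling (-0.10, adjusted p 0.047), and the second lost its call with library size scaling (-0.04).

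Kif4 and Cenpi lie on the X chromosome, and both were higher in the knockout. Kif4, a chromosome arm motor, stood at 116 and 111 CPM in wild type, 226 and 216 in the knockout libraries, and 186 and 180.4 in the transfected libraries. Cenpi, a subunit of the constitutive network, stood at 55.9 and 57.1, 111 and 112, and 91.3 and 87.6 CPM. The log2 fold in the knockout was 0.96 (SE 0.0401) for Kif4 and 0.98 (SE 0.0485) for Cenpi, and both stayed above wild type in the transfected libraries, by 0.69 and 0.66. Of 631 X-linked genes tested, 428 were higher in the knockout and 67 lower, with a median of 0.87 and an interquartile range of 0.22 to 1.51. Both genes lie inside that range. Of the exons of Kif4, 15.1% overlap Pdzd11. Of 16324 autosomal genes the median was 0.005. Of 6 Y-linked genes tested, 4 were lower in the knockout. The part of these chromosome-wide values in the 2 members was not tested.

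Cenpa and Cenpb, which mark and bind the centromere, were not lower in the knockout. Cenpa stood at 125 and 124 CPM in wild type, 121.5 and 129.9 in the knockout libraries, and 69.5 and 68.8 in the transfected libraries. It differed by 0.02 (SE 0.0425) in the knockout, which did not pass, and by -0.86 (SE 0.0463) between the transfected libraries and the knockout. With corrections for GC content and length Cenpa stood at -0.13 in the knockout. Cenpb, which binds a short motif in centromeric repeats, stood at 91.8 and 91.4, 135 and 130.2, and 79.6 and 82.1 CPM. It was higher by 0.53 (SE 0.0438) in the knockout and lower by -0.71 (SE 0.0448) in the transfected libraries than in the knockout.

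The constitutive centromere network had 14 members, with a median log2 fold of -0.32 in the knockout. Cenpk, at 29.3 and 28.2 CPM in wild type, 12.2 and 12.5 in the knockout libraries, and 21.3 and 18.9 in the transfected libraries, and Cenpq, at 31.1 and 31.5, 15.0 and 16.8, and 34.6 and 28.8, were the lowest in the knockout. Their log2 fold was -1.22 (SE 0.0863) and -0.98 (SE 0.0817), then 0.70 (SE 0.0932) and 0.99 (SE 0.082). Cenps and Cenpx, the histone-fold pair that also serves in DNA repair, went further down in the transfected libraries. Cenps stood at 38.6 and 37.7, 26.3 and 25.5, and 11.7 and 13.5 CPM, and Cenpx at 33.6 and 39.5, 27.4 and 30.1, and 15.2 and 14.7. The transfected libraries stood below wild type by -1.59 (SE 0.0832) and -1.29 (SE 0.0825). Cenpt, the subunit that links centromeric DNA to the outer kinetochore, went the other way, from 111 and 118 CPM to 139 and 151 and then to 166 and 169.

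The remaining network members, Cenph, Cenpl, Cenpm, Cenpn, Cenpo, Cenpp, Cenpu and Cenpw, ranged from -0.62 to 0.28 in the knockout. With corrections for GC content and transcript length the network's median in the knockout was 0.006 in place of -0.32, and Cenpl, Cenpp and Cenpw turned direction (0.02, 0.18 and 0.74). The value of Cenpk then was -0.26, and its rise in the transfected libraries became -0.24. Cenpp passed in the knockout with -0.28, but not without wild-type replicate 2 (-0.19, adjusted p 0.081). Of the exons of Cenpu, 26.7% overlap Primpol on the other strand, and of those of Cenpo 19% overlap Adcy3. The strand setting of the counting is not given, so reads there may belong to either gene. Cenpj, a centriole protein outside the kinetochore, stood at 27.7 and 26.4 CPM in wild type, 16.6 and 17.1 in the knockout libraries, and 26.3 and 25.2 in the transfected libraries. It did not pass between the transfected libraries and wild type (adjusted p 0.39).

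Transport kinesins were higher in the knockout in 10 of 15, with a median log2 fold of 0.40, which was 0.11 with corrections for GC content and length. Of all genes tested, 34.5% were higher and 33.3% lower there, with a median of 0.024. Those 10 transport kinesins include Kif17, whose direction against wild type was fixed by the read minimum. They also include Kif1a, Kif1c, Kif5a and Kif21b, whose calls were lost under some of the alternative settings. Kif5b, a conventional kinesin heavy chain, had the largest fall among the transport kinesins. It stood at 431 and 432 CPM in wild type, 112 and 113 in the knockout libraries, and 209 and 198 in the transfected libraries. The log2 fold was -1.94 (SE 0.039), 0.86 (SE 0.0407) and, against wild type, -1.09 (SE 0.0371). Kif5c, a relative found mainly in neurons, stood at 24.6 and 20.6, 36.7 and 37.4, and 44.5 and 45.97 CPM. Kif5a, the other neuronal relative, had 20.4 and 20.3, 23.6 and 22.9, and 41.9 and 40.9 CPM. Kif5c rose by 0.72 (SE 0.0723) in the knockout. The value of Kif5a there was 0.20 (SE 0.0799), and its call was lost without wild-type replicate 1 (0.20, adjusted p 0.081), wild-type replicate 2 (0.19, adjusted p 0.09) or knockout replicate 1 (0.18, adjusted p 0.12). It was lost with RLE scaling and DESeq2 too (adjusted p 0.12 and 0.31), and the value was -0.10 with the GC correction.

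The make-up of several kinesin families differed between the groups. Per length, Kif5b was 89.9% of the summed RPKM of Kif5a, Kif5b and Kif5c in wild type, 62.3% in the knockout libraries and 67.5% in the transfected libraries. Kif5c went from 5.26% to 23% and 16.8%. Among the kinesin-6 motors, Kif20b went from 35.7% in wild type to 12% in the knockout libraries and 35.4% in the transfected libraries, while Kif20a went from 47.6% to 56% and 29.7%. Kif18a was 27.3%, 8.08% and 17.7% of the sum with Kif18b. These shares were not tested. Shares of Kif13a and Kif13b stayed near each other in the 3 groups, from 49% to 54.6% for Kif13a.

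**Figure D3:**
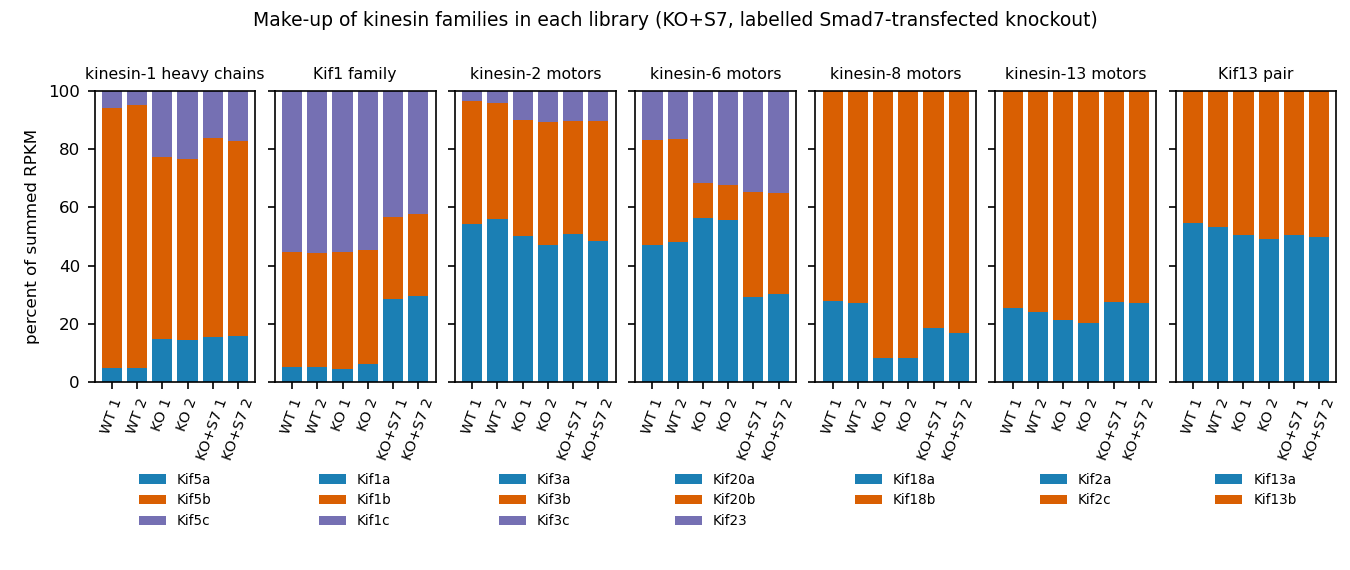
Percent of the summed RPKM (y axis) taken by each motor of 7 kinesin families or pairs in each of the 6 libraries; KO+S7 is the labelled Smad7-transfected knockout. The Kif5b share falls from 89.9% in wild type to 62.3% in the knockout, and Kif1a takes 29.2% of its family in the transfected libraries.

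Kif1a, which carries synaptic vesicle precursors in neurons, had the greatest rise in the transfected libraries among members of at least 5 CPM. It stood at 6.67 and 6.21 CPM in wild type, 7.08 and 9.94 in the knockout libraries, and 77.9 and 85.2 in the transfected libraries, far above both other groups. The log2 fold over the knockout was 3.27 (SE 0.0799) and over wild type 3.67 (SE 0.0869). In the knockout it was 0.40 (SE 0.134) higher than in wild type, a call that was lost without knockout replicate 2 (0.15, adjusted p 0.43), without wild-type replicate 2 (adjusted p 0.05), with DESeq2 (adjusted p 0.055) and with the GC correction (adjusted p 0.46). Beside it, 7 neuron markers summed to 477 and 484 CPM in wild type, 459 and 485 in the knockout libraries, and 357 and 359.7 in the transfected libraries, and none was at 0. Of the 5 tested, 3 were higher in the transfected libraries than in the knockout and 1 lower: Map2 by 0.84, Elavl3 by 0.57 and Syp by 0.85, with Stmn2 at -0.69. Of all genes tested, 37.8% were higher and 36.8% lower in that comparison. The part of the neuron markers in the rise of Kif1a was not tested.

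Kif3c, a kinesin-2 motor, was higher in the knockout and stayed there. It stood at 4.54 and 5.65 CPM in wild type, 14.4 and 16.2 in the knockout libraries, and 14.0 and 13.7 in the transfected libraries, a log2 fold of 1.58 (SE 0.123) in the knockout. Of its exons, 35.3% overlap 1110002L01Rik, so its reads may in part belong to that gene. The ciliary motors Kif3a and Kif3b did not pass in the knockout (-0.06 and 0.13), and with the second the call depended on the library: it passed without wild-type replicate 1 (0.20, adjusted p 0.016) or knockout replicate 1 (0.19, adjusted p 0.016). Kif13b, at 85.9 and 83.2, 141 and 142, and 98.5 and 102 CPM, was 0.74 (SE 0.0439) higher in the knockout and -0.50 (SE 0.043) lower after transfection. Kif21a was low, at 5.31 and 4.36, 3.87 and 2.94, and 9.74 and 9.84 CPM, and rose by 1.52 (SE 0.15) in the transfected libraries over the knockout. Kif1c rose in both steps, from 55.0 and 53.1 CPM to 69.99 and 70.8 and then to 91.7 and 94.6, and stood 0.79 (SE 0.0512) above wild type. Its first step lost its call with corrections for GC content and length (0.08, adjusted p 0.14).

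The other kinesins include several with few reads. Kif6, Kif17, Kif19a, Kif26b and Kif27 had fewer than 10 reads in both wild-type libraries, so each met the read minimum only through groups where it was higher. Their direction against wild type was thus fixed by the choice of members, and for Kif19a and Kif27, with at most 10 reads in a knockout library, largely so against the knockout as well. Their values are a description. Kif19a, a motor of motile cilia, had no read in wild type, 19 in the knockout libraries together and 80 in the transfected libraries. The upper limit for a count of 0 at about 95% confidence is 3 counts over the whole group. Against that limit, Kif19a stood 5.71-fold higher in the knockout and 27.3-fold higher in the transfected libraries. The limit covers counting error in wild type only, and the 19 and 80 reads were taken as exact. At those folds the median over the members is the same, 0.003 in the knockout and -0.07 in the transfected libraries against wild type. It could not have moved, since Kif19a lies above the median with either value. Kif17, a homodimeric ciliary motor, had 0.24 and 0.17 CPM, 1.27 and 0.79, and 3.35 and 3.73, and Kif27, related to the hedgehog motor Kif7, had 0.35 and 0.28, 0.36 and 0.53, and 2.0 and 2.87. Both were highest in the transfected libraries, at a log2 fold over the knockout of 1.77 (SE 0.257) and 2.47 (SE 0.344). Kif7 itself went the other way, from 28.6 and 25.7 CPM in the knockout to 18.1 and 19.7, a log2 fold of -0.52 (SE 0.0814). Kif2a, a depolymerase at spindle poles and in neurons, was at -0.38 in the knockout, which became 0.33 with corrections for GC content and length. Of the exons of Kif7, 19.1% overlap 9330171B17Rik, and of those of Kif2a, 19.2% overlap Dimt1. Reads there may belong to either gene.

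The remaining kinesins and Cenpv varied in level and in the size of their differences. Kif1b, Kif13a, Kif21b and Kif26a had log2 folds of 0.41 to 0.51 in the knockout, and all 4 passed. Of these, Kif21b and Kif26a lost their calls there with corrections for GC content and length. Kif16b and Kif24 passed in none of the 3 comparisons. With a filter of 1 CPM in 4 libraries both passed in the transfected libraries, at 0.18 and 0.24 against the knockout and 0.24 and 0.24 against wild type. With library size scaling both passed there too, at 0.32 and 0.38, and 0.52 and 0.53. In the knockout Kif16b passed with library size scaling (0.20), and Kif24 stood at -0.23 with the GC correction. Cenpv stood at 35.9 and 37.5 CPM in wild type, 34.4 and 35.9 in the knockout libraries, and 20.3 and 21.9 in the transfected libraries. It was lower in the transfected libraries than in the knockout, by -0.73 (SE 0.0739). Kif6, Kif9 and Kif26b, each below 5 CPM in every library, were highest in the transfected libraries by group mean. The log2 fold of Kif6 over wild type there was 1.22, and 0.88 without wild-type replicate 1. The direction of Kif6 and Kif26b against wild type was fixed by the read minimum, so their values are a description.

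In the transfected libraries against the knockout, 21 members were higher, 25 lower and 11 did not pass. That is 36.8% and 43.9%, beside 37.8% and 36.8% of all genes tested. The median was -0.07, and 0.04 over all genes, and 53 of the 57 members did not overlap, beside 86.3% of all genes. By at least 2-fold, 11 members were higher and 1, Cenps, lower, beside 18.9% and 6.85% of all genes. Among the 51 members of 5 CPM or more, 7 were higher and 1 lower by that much. At any size, 33.3% of these 51 were higher and 49% lower, and the share of all genes at that level was not taken. With a filter of 1 CPM in 4 libraries, 22 of 52 members were higher and 22 lower. Of all genes 78.7% then passed, with 50.2% of calls higher. The higher members include Kif19a and Kif27, whose direction against the knockout was largely fixed by the read minimum. Scaled by library size alone, 30 members were higher and 14 lower, with the median of all genes at 0.29. Cenp genes were lower in 13 of 20 and higher in 6, and kinesins higher in 14 of 35 and lower in 11. By role, 3 of 11 mitotic kinesins were higher and 5 lower, 8 of 15 transport kinesins were higher and 3 lower, and 3 of 14 network members were higher and 10 lower.

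In the transfected libraries against wild type, 22 members were higher, 28 lower and 7 did not pass. The shares were 38.6% and 49.1%, beside 43.1% and 38.8% of all genes tested. The median was -0.07, and 0.09 over all genes, and 54 members did not overlap, beside 89.9% of all genes. By at least 2-fold, 11 were higher and 4 lower, beside 27.4% and 15.6%, and 5 were higher among the members of 5 CPM or more. The 4 lower ones were Cenps, Kif20a, Cenpx and Kif5b. At any size, 31.4% of the members of 5 CPM or more were higher and 54.9% lower. The share of all genes at that level was not taken. With a filter of 1 CPM in 4 libraries, 85.1% of all genes passed, with 51.5% of calls higher. The higher members include Kif6, Kif17, Kif19a, Kif26b and Kif27, whose direction against wild type was fixed by the read minimum. Scaled by library size alone, 34 members were higher and 20 lower, with the median of all genes at 0.48. Cenp genes were lower in 15 of 20 and higher in 3, namely Cenph, Cenpi and Cenpt. Cenph lost its call without wild-type replicate 1 (0.12, adjusted p 0.076). Mitotic kinesins had a median of -0.75 and transport kinesins one of 0.67.

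Related genes outside the symbol pattern included others with large falls. In the knockout against wild type, 6 of 10 genes of the KMN network, the outer kinetochore's microtubule binder, were lower and none higher, with 4 not passing and a median of -0.32, beside 33.3% lower and 34.5% higher of all genes tested. Knl1, its scaffold, stood at 209 CPM in wild type, 34.5 in the knockout libraries and 145 in the transfected libraries, a log2 fold of -2.60 and then 2.07. Condensin, which compacts mitotic chromosomes, was lower with topoisomerase Top2b in 6 of 9 and higher in 1, with its core ATPases Smc2 and Smc4 at -2.03 and -1.99 and then at 1.68 and 1.52. Of the spindle checkpoint genes and mitotic kinases 7 of 10 were lower and 1 higher, and of the passenger complex and shugoshins 5 of 7 were lower and none higher. Sgo2a, which protects centromeric cohesion, was at -1.36 and then 1.85. Of 6 genes of CENP-A deposition, 3 were lower and 2 higher. Spindle and midzone genes were lower in 9 of 14 and higher in 2.

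In the transfected libraries against the knockout, checkpoint genes and mitotic kinases were lower in 8 of 10, with a median of -0.92, beside 36.8% of all genes lower and 37.8% higher. Cdc20, the activator of the anaphase-promoting complex, stood at 336, 294 and 126 CPM in the 3 groups, and Plk1, a master mitotic kinase, at 168, 167 and 67.0. Both were lowest in the transfected libraries, at -1.23 and -1.31 against the knockout. Bub1 and Ttk, checkpoint kinases of the same list, rose there by 1.23 and 1.00. KMN genes were higher in 4 and lower in 5 of 10, the passenger complex and shugoshins higher in 1 and lower in 6 of 7, CENP-A deposition higher in 2 and lower in 2 of 6, spindle and midzone genes higher in 6 and lower in 5 of 14, and condensin with Top2b higher in 5 and lower in 4 of 9. Against wild type these lists were lower in 9 of 10 (KMN), 8 of 10 (checkpoint), 6 of 7 (passenger), 3 of 6 (deposition), 11 of 14 (spindle) and 7 of 9 (condensin), and higher in 1, 2, 1, 1, 3 and 1 of them. Of all genes tested, 38.8% were lower and 43.1% higher in that comparison.

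Microtubule motors and partners that the pattern misses were mixed, and are read against the shares of all genes just given for each comparison. Of 9 other kinesins and light chains, 2 were higher and 3 lower in the knockout, then 2 and 5 in the transfected libraries against it, and 2 and 5 against wild type. Kifc3, a minus-end motor of epithelial junctions, fell in both steps, from 141 to 54.0 and 24.8 CPM (-1.39 and -1.12). Cytoplasmic dynein and its partners were higher in 4 and lower in 5 of 13 in the knockout libraries, 2 and 9 in the transfected libraries against it, and 2 and 8 against wild type, and Dync1h1, the dynein heavy chain, was 0.56 higher in the knockout. Of 8 ciliary partners, 2 were higher and 2 lower, then 5 and 3, and 4 and 3 against wild type, with Ift74 at -1.32 and then 0.96. Of 12 regulators of mitotic genes, 5 were higher and 5 lower, then 2 and 5, and 3 and 6 against wild type. Mybl2 differed by 0.08 in the knockout and -0.71 in the transfected libraries against it, and Foxm1 by 0.15 and -0.21, while Rbl2, a pocket protein of the repressive DREAM complex, stood at 9.86, 28.3 and 55.5 CPM, rising by 1.52 and then 0.97.

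The members with the largest falls in the knockout had few G or C at the third codon position, a property that the choice of members did not use. Coding sequence was found for 56 of the 57 members, all but Cenpw. The third codon position was G or C in 45.9% of codons in Cenpf, 44.3% in Cenpe, 40.4% in Mki67, 37.5% in Kif20b, 35.0% in Kif18a, 43.1% in Kif5b and 32.4% in Cenpk. These are the 7 members lower by at least 2-fold. The median was 54.5% over the members and 61.2% over the genes tested. The 15 members that did not pass in the knockout ranged from 48.8% in Cenpu to 77.8% in Cenpv. High values were also found in lower members, at 77.8% in Cenpm and 67.6% in Cenps. Low values were also found in members that were not low, at 44.0% in Cenpi, 48.5% in Kif4 and 48.0% in Kif23. Shares in the range of the 7 were found in members that fell by less than 2-fold too. Examples were Kif2a at 37.6% (log2 fold -0.38), Cenpl at 38.3% (-0.41), Cenpx at 38.8% (-0.35), Top2a at 43.8% (-0.49) and Kif15 at 44.6% (-0.16).

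When all genes were put into 3 equal bins by this share, with bounds at 55.2% and 66.2%, the lowest bin held 29 members, of which 17 were lower in the knockout and 5 higher, with a median of -0.35. In the same bin of all genes 50.6% were lower and 27.4% higher, with a median of -0.18. The middle bin held 13 members with 2 lower and 7 higher, beside 29.4% and 42.2% of all genes in it. The highest held 14 with 2 lower and 8 higher, beside 24.3% and 46.8%. Those 8 include Kif17, Kif19a and Kif26b, whose direction against wild type was fixed by the read minimum. Across genes, which are not independent replicates, Spearman's rho between this share and the log2 fold in the knockout was 0.59 over 56 members and 0.27 over 13623 genes tested. Between the transfected libraries and the knockout it was -0.14 and -0.10. There the length of the coding sequence had the higher value, with rho 0.51 over the members and 0.20 over all genes. The values over the members include Kif6, Kif17, Kif19a, Kif26b and Kif27, and were not taken without them. Members of a gene family and low-GC genes share sequence and library, so these are descriptions.

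With a correction of each library for GC content and transcript length, the largest falls in the knockout still passed, and all of those given here but that of Mki67 were smaller. Cenpf stood at -2.59, Mki67 at -2.26, Cenpe at -2.05, Kif20b at -1.71, Kif5b at -1.57 and Kif18a at -1.30. Cenpk, the remaining member lower by at least 2-fold, had been at -1.22 and kept only a small part of its fall, as given with the network above. In the transfected libraries against the knockout, Kif18a then stood at 0.26, Kif5b at 0.30, Kif20b at 0.70 and Cenpk at -0.24. The share of reads from mitochondrial genes was 1.37% to 1.58% in wild type and knockout, and 2.33% to 2.48% in the transfected libraries, while cytosolic ribosomal protein genes took 4.88% to 5.62% and 3.62% to 3.66%. The part of base composition, length and library make-up in these differences was not tested.

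**Figure D4:**
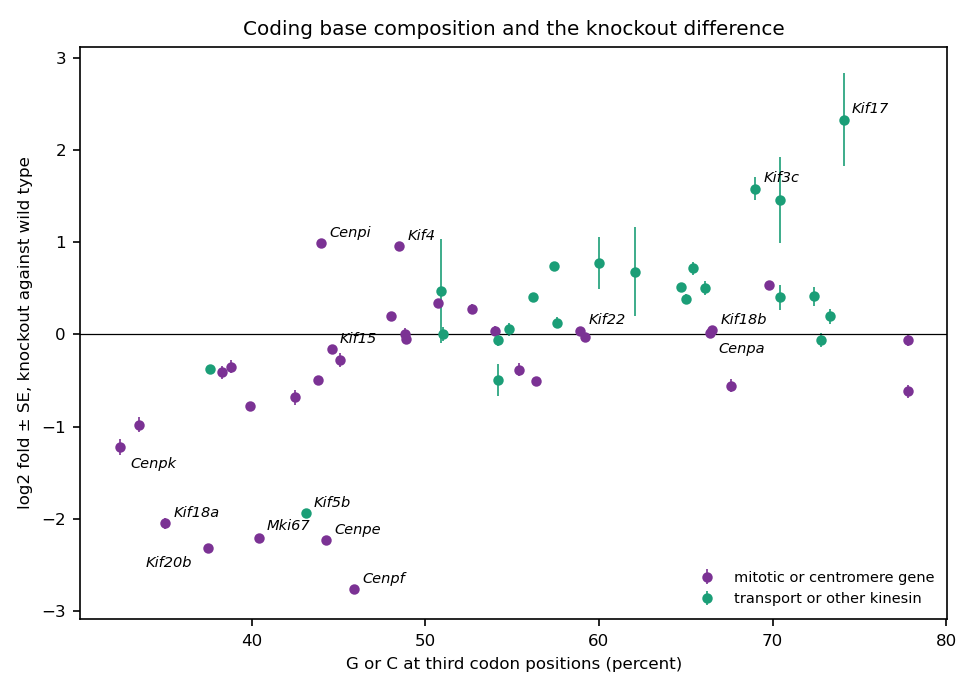
Log2 fold in the knockout against wild type with its standard error (y axis) against the share of G or C at the third codon position (x axis, percent) for 55 members, without Cenpw and Kif19a. Members from Cenpk to Cenpf with shares of 32.4% to 45.9% include the 7 lowest folds, and Kif4 and Cenpi lie above zero at 48.5% and 44.0%.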

How the data were processed

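Poly(A)-selected RNA was sequenced on an Illumina instrument from TruSeq RNA Sample Prep libraries, per the labels' protocols. The values are raw read counts per gene symbol as deposited by the authors. STAR and featureCounts 1.6.3 and the builds mm10 and GRCm38 are named in the submitters' processing notes, with no role or order. For the annotation, the strand setting and reads that fall in several genes, the settings were not given in the sources used here. Of 8 columns, 6 matched a labelled sample and 2 matched no label and were not used. The planned comparisons with the lncSmad7-transfected knockout were therefore not run.

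Genes were filtered with filterByExpr and scaled with TMM factors, and 17342 were tested with edgeR's quasi-likelihood test (edgeR 4.0.16, limma 3.58.1, R 4.3.3, robust, 3 residual degrees of freedom, Benjamini-Hochberg adjustment, threshold 0.05) over all 6 libraries. With 3 residual degrees of freedom the spread is mostly borrowed across genes, and the common biological coefficient of variation was 2.47%. P-values rest on the spread between these libraries alone, and although the design calls replicates biological, no label names separate cultures. Replicates differed beyond sampling noise, with chi-square values of 1.57 to 1.89 per degree of freedom, so none was taken for a second deposit. SE is the log2 fold divided by the root of the F statistic. Levels are CPM with TMM factors, and RPKM use merged exon lengths of GENCODE M21, matched by symbol. Coding sequences came from the same annotation, and promoters from RefSeq.

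The members, roles and lists were chosen with earlier results of these data known. Named were 19 members always, the 6 members with the largest rise and the 6 with the largest fall in each comparison with a mean of at least 5 CPM and separate libraries, and, from each list, up to 3 genes by smallest adjusted p. Further members, Foxm1 and the neuron markers were named after their values were seen. A gene that the rule names is not reported here. The lists were the KMN network, chromosomal passenger complex and shugoshins, spindle checkpoint and mitotic kinases, CENP-A deposition, spindle and midzone, condensin and topoisomerase, other kinesins and partners, dynein, regulators of mitotic genes, ciliary partners, and markers of embryonic stem cells, fibroblasts and feeders, primitive endoderm and neurons. Alternatives were RLE scaling, library size scaling, DESeq2 1.42.0, no filter, a filter of 1 CPM in 4 libraries, a replicate block, a fit without the group outside the comparison, GC and length offsets (mgcv 1.9.3), glmTreat against a fold of 1.5, and each replicate left out.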

Additional observations from a re-analysis of the deposited data

How the results depend on the processing

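The alternatives left most calls in place. Under all of them except the test against a fold of 1.5, 29 of 42 calls were held in the knockout against wild type, 32 of 46 in the transfected libraries against the knockout, and 37 of 50 against wild type. Tested against a fold of 1.5, 8 members were higher and 9 lower in the knockout, 14 were higher and 8 lower in the transfected libraries than in the knockout, and 14 were higher and 16 lower than in wild type. Of all genes, 27.4%, 34.6% and 53.1% passed that test in the same order. Of those calls, 58.3%, 59.6% and 57.3% were higher. Library size scaling gave 14 lower in the transfected libraries than in the knockout and 34 higher than in wild type, and shifted the median of all genes to 0.17, 0.29 and 0.48, with 61.7%, 65.7% and 68.3% of calls higher. Without each replicate in turn, counts of members higher and lower ranged from 18 to 19 and 21 to 22 in the knockout, from 21 to 22 and 23 to 25 in the transfected libraries against it, and from 20 to 22 and 27 to 28 against wild type. With 1 library left, its spread is assumed to be that of the other groups.

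Directions turned with the GC and length offsets in the knockout for Cenpl (0.019), Kif24 (-0.23), Cenpa (-0.13), Kif22 (-0.11), Kif15 (0.035), Cenpw (0.74), Kif5a (-0.10), Kif18b (-0.20), Cenpp (0.18), Kif2a (0.33) and Cenpc1 (0.054), and with library size scaling for Kif2c (0.11). In the transfected libraries against the knockout they turned with the offsets for Kif1b (-0.002), Cenph (0.13), Cenpk (-0.24) and Cenpm (0.076), and with library size scaling for Kif3b (0.10), Cenpn (0.011), Kif3a (0.16), Cenpo (0.075), Kif26a (0.082), Cenph (0.18) and Kif11 (0.17). Against wild type they turned with library size scaling for Kif14 (0.057), Cenpb (0.21), Kif3b (0.37), Cenpe (0.21), Mki67 (0.088), Cenpn (0.19), Kif3a (0.24) and Cenpj (0.32), and with the offsets for Kif26a (-0.15), Kif13a (-0.34), Kif13b (-0.19) and Hjurp (-0.03). The cause was not tested.

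A replicate block gave 20 higher and 22 lower, 21 and 26, and 22 and 28, so it moved 1 member, Kif11, across the threshold. Deviations of same-numbered replicates correlated at 0.006, 0.005 and 0.03, so the numbers were not taken to pair the libraries.

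Each group had 2 libraries, the knockout's number of clones is not given, and no mock transfection was analysed. Members under 5 CPM rest on few reads: without them, 16 members were higher and 22 lower in the knockout. The share of all genes at that level was not taken.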

Other observations

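Markers of the primitive endoderm, a cell type that embryonic stem cell cultures can form, fell in the knockout in 7 of 7. They summed to 74.7 and 74.9 CPM in wild type, 8.41 and 7.78 in the knockout libraries, and 13.4 in each transfected library, and none was at 0. Dab2 and Gata6 were at -5.26 and -5.46 in the knockout. Of the 8 embryonic stem cell markers, 7 were higher in the knockout and 1 lower, and 7 were lower in the transfected libraries than in the knockout. Their sums were 4850 and 4926 CPM in wild type, 6580 and 6676 in the knockout libraries, and 4385 and 4370 in the transfected libraries. Of the 3 fibroblast and feeder markers tested, 2 were higher in the knockout and 3 were higher in the transfected libraries than in the knockout. Of the 5 neuron markers tested, 1 was higher in the knockout and 2 were lower. Of all genes tested, 34.5% were higher and 33.3% lower in the knockout against wild type. In the transfected libraries against the knockout, 37.8% were higher and 36.8% lower. The part of the cell type markers in the values of the members was not tested.

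Regulators that bind the promoters of mitotic genes also differed. E2f1 stood at 37.3 CPM in wild type, 78.6 in the knockout libraries and 81.0 in the transfected libraries, and E2f4, a partner of the repressive DREAM complex, at 338, 291 and 127. Lin9, a subunit of the MuvB core, stood at 51.2, 24.5 and 26.2 CPM. Among the members with few reads, Kif9 had a log2 fold of 0.78 (SE 0.283) in the knockout. Its call was lost without wild-type replicate 1 (0.65), without knockout replicate 1 (0.64) and with DESeq2 (adjusted p 0.15). Kif26b had a log2 fold of 1.46 in the knockout, and 0.92 without wild-type replicate 1. Its direction against wild type was fixed by the read minimum, so its values are a description.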
